A study of Mus musculus with 16 samples.

Results

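The genes described here are the Rab GTPases, the family of small GTP-binding proteins that direct membrane traffic. Every row of the deposited gene table whose symbol is Rab followed by a number and its letter suffix was taken, which gave 58 of 24015 rows. The samples were microglia, the resident macrophages of the brain, from the hippocampi of mice aged 3 months (young, 6 samples) and 20 months (aged, 6 samples). The mice had no treatment or engineered allele in the labels. After perfusion, live CD11b+ CD45lo cells were sorted by flow cytometry and their RNA was amplified and sequenced as paired ends. The strain label is C57BL/6, except that it reads C57BL/7 for aged sample 5 and C57BL/8 and C57BL/9 for the libraries of aged sample 6, which was not settled here. Whether cells of several mice were combined in a sample is not stated, and the p-values rest only on sample-to-sample spread, which may be technical.

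A Rab protein cycles between an inactive, GDP-bound form held in the cytosol and an active, GTP-bound form on a membrane. Guanine nucleotide exchange factors (GEFs) switch it on, GTPase-activating proteins (GAPs) switch it off, and GDP dissociation inhibitors carry it between membranes. The active form recruits effectors such as tethers and motor adaptors, and each Rab marks its own compartment. In microglia, as in other macrophages, engulfed material passes through compartments marked in turn by Rab5 and Rab7, and secretion and receptor recycling use other members.

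No Rab GTPase gene passed the test between ages. Of the 58 genes, 42 had at least 10 normalized counts in at least 6 of the 12 samples and were tested, and 16 were below that filter. With limma on log2(normalized count + 1) and Benjamini-Hochberg adjustment over all genes tested, 0 of the 42 passed an adjusted p of 0.05. Over all 11579 genes tested, 1.73% passed (147 higher and 53 lower at 20 months). At an unadjusted p under 0.05 there were 3 Rab genes of 42, Rab5c, Rab6b and Rab39, against 10.8% of all genes tested. No tested Rab gene had values at 1 age that lay wholly outside those at the other, where 1.87% of all genes did. With 42 genes, counts of 0 are near the shares of all genes called or without overlap, and do not set the Rab genes apart. Of the tests on subsets, edgeR's quasi-likelihood test on the recovered reads of the 8 samples with 1 library called 0 Rab genes (background 0.786%), DESeq2 on the same reads called 0 (2.03%), limma on those 8 samples called 0 (0.674%) and limma on the 4 samples with 2 libraries called 0 (0.164%).

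Most differences were small. The median log2 difference, 20 months minus 3 months, was -0.03 over the 42 Rab genes, with 19 above 0 and 23 below, and 0.0016 over all genes tested. It ranged from -0.28 for Rab3a to 0.65 for Rab5c. The 95% interval of the difference lay within 1.5-fold in either direction for 37 of the 42 genes and within 2-fold for 40, the exceptions to the latter being Rab5c and Rab36. Over all 11577 distinct symbols tested, these counts were 8596 and 10251. The comparison was not matched for expression level. Summed over the 58 genes, Rab transcripts made up 0.350% to 0.395% of a sample's normalized counts in young and 0.352% to 0.403% in aged mice, so the ranges overlapped. Among the tested Rab genes, the median SD between samples of 1 age was 0.160 on the log2 scale, from 0.0754 for Rab2a to 0.760 for Rab36. For genes with a mean of at least 500 normalized counts it was 0.134 over 33 Rab genes and 0.165 over all 6626 genes.

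**Figure D1:**
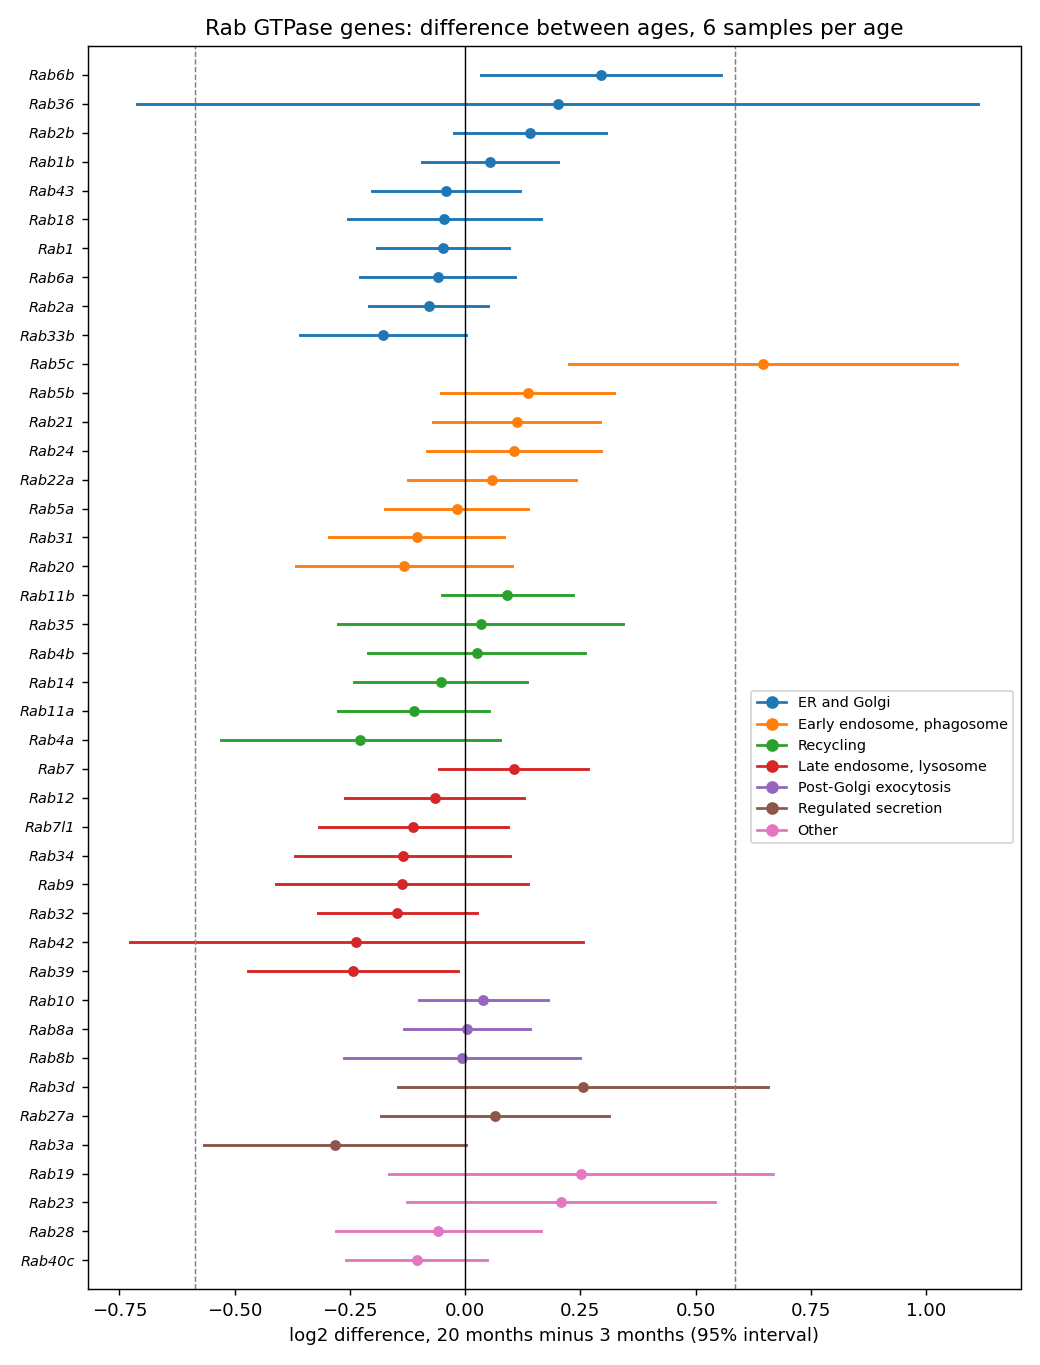
Log2 difference of the 42 tested Rab GTPase genes (20 months minus 3 months, x axis), as points with 95% intervals from limma, 6 samples per age, coloured by role. Dashed lines mark 1.5-fold in either direction, and the interval of Rab5c lies furthest to the right among those clear of 0.

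Depth recovered from the values was about 11400000 to 56700000 reads per young sample and 24200000 to 58200000 per aged sample. The microglial markers Tmem119 and P2ry12 were at 227643 ± 9785 and 199938 ± 16068 normalized counts in young and 222139 ± 14417 and 176254 ± 13458 in aged mice (SD, n = 6 each), and neither passed. Another, Fcrls, fell from 123873 ± 5703 to 89490.3 ± 6869 (limma's adjusted p 3.8e-04). The 12 neuronal markers summed to 90.2 to 165 normalized counts in young and 103 to 158 in aged mice, with Nefm, Tubb3, Stmn2 and Gad2 under 10 everywhere. Choroid plexus and ependymal markers summed to 264 to 1281 in young and 437 to 3506 in aged mice, and 0 of the 4 tested passed. The 7 astrocyte markers summed to 5481 to 7020.2 in young and 5610.1 to 7608 in aged mice. Nearly all of that sum was Slc1a3, at 6091 ± 620 and 6351 ± 723 (SD, n = 6 each; limma's adjusted p 0.894). Of the other astrocyte markers Aldoc had the highest means, 48.8 and 73.0. Among the 4 tested, 1 was called: Aldh1l1 rose from 19.4 ± 8.37 to 57.2 ± 26.5 normalized counts (SD, n = 6 each), 2.82-fold. Its limma adjusted p was 0.0411, and its ages did not overlap. Without aged sample 1 that p was 0.110, and Aldh1l1 passed in 9 of 24 alternative settings. Because these are bulk samples, fewer cells expressing a gene and less RNA per cell cannot be told apart.

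Among Rabs of the early endosome and phagosome, Rab5c had the smallest p of all tested Rab genes. Rab5a, Rab5b and Rab5c are close relatives that mark the early endosome and drive its fusion. Rab5c lies at chr11:100715009-100738215 (GRCm38), and its normalized counts were 297, 381, 406, 318, 308 and 380 in young samples 1 to 6 and 292, 619, 495, 500.5, 597 and 943 in aged samples 1 to 6. Aged samples 2 to 6 were above every young sample, and aged sample 1 was below every young sample. The means were 348 ± 45.95 and 575 ± 214 (SD, n = 6 each), a log2 difference of 0.65 (SE 0.20) or 1.56-fold with a 95% interval of 1.17 to 2.09, and limma's adjusted p was 0.146. Without aged sample 1 the log2 difference was 0.82 and limma's adjusted p 0.0128, and Rab5c was then the only Rab gene called (background 1.41%). With aged sample 6 left out instead, limma's adjusted p of Rab5c was 0.207. In limma fits split by the number of libraries, the log2 difference was 0.48 on the 8 samples with 1 library (adjusted p 0.520) and 0.97 on the 4 samples with 2 (adjusted p 0.524). Over 25 alternative settings its adjusted p ran from 0.0128 to 0.524 and its log2 difference from 0.41 to 0.97. Aged sample 1 also had the lowest choroid and ependymal marker sum of the aged samples, 437, and the lowest border macrophage marker sum, 179 against an aged median of 384. Aged sample 6, the highest in Rab5c, had sums of 2245 and 207 for these 2 marker lists in that order. The part of these marker levels in the Rab5c result was not tested.

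The promoters of the 3 Rab5 genes are shown because their transcripts take unequal shares and differ in spread, and that of Rab32 because it carries a PU.1-type site. Each is the 250 bases before the start of the gene in RefSeq (GRCm38.p6), read 5′ to 3′ on the gene's strand: Rab5a at chr17:53478984-53479233 on the plus strand, and Rab5b at chr10:128696269-128696518, Rab5c at chr11:100738216-100738465 and Rab32 at chr10:10558208-10558457 on the minus strand. Capitals mark TCACGTGA, the core of the lysosomal CLEAR element, in Rab5a and GAGGAAGT, a PU.1 site, in Rab32. In the GENCODE vM21 annotation the Rab32 gene reaches to chr10:10558265. The GAGGAAGT, which starts 43 bases before the RefSeq start, therefore lies inside the gene in that annotation.
Rab5a: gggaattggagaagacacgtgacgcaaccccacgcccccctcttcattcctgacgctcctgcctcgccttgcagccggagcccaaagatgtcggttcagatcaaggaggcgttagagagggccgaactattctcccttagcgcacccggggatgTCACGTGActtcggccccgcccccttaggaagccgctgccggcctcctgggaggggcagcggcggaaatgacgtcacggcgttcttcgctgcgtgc
Rab5b: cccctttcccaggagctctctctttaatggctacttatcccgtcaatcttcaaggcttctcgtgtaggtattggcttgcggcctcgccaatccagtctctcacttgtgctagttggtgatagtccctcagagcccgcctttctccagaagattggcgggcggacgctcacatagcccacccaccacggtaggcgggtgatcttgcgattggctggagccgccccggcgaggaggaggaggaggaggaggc
Rab5c: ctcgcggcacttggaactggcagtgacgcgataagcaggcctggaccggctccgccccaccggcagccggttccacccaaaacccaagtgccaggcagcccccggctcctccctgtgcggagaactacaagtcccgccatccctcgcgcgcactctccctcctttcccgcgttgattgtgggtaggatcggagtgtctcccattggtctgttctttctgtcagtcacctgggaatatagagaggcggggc
Rab32: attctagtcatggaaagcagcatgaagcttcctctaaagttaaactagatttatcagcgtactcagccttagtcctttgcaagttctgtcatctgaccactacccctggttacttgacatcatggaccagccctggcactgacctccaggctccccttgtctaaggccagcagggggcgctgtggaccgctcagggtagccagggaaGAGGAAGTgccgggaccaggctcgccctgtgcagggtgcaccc

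Of the 58 genes, 48 had a RefSeq promoter. TCACGTGA, searched on both strands, was found in the window of Rab5a and Rab21 only, 3.33% of 60 Rab promoters against 0.785% of all 32851. GAGGAAGT was found for Rab2b and Rab32, 3.33% against 2.44%. The CCAAT box was in 40% of Rab promoters and 33.8% of all, and the GC box GGGCGGG in 45% and 23.4%. All 3 Rab5 windows hold a CCAAT, and of the 3 only Rab5a's holds the GC box. A match is a description of letters and not a binding site, and these motifs were chosen after others had been searched.

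Rab5b was measured at 1790, 1869, 1574, 1482, 1506 and 1585 normalized counts in young and 2084, 1480, 1731, 1887, 1830 and 1776 in aged samples. The ages overlapped, with means of 1634 ± 158 and 1798 ± 198, and limma's adjusted p was 0.693. Rab5a, the most abundant of the 3 per kilobase of exon, had 2556 ± 234 and 2519 ± 133 normalized counts (SD, n = 6 each; limma's adjusted p 0.964). Of the 3 genes' summed level per kilobase, Rab5a held 46.9% ± 1.503, Rab5b 37.7% ± 2.55 and Rab5c 15.4% ± 1.34 in young mice, and 41.1% ± 2.23, 36.8% ± 4.73 and 22.1% ± 6.61 in aged mice (SD, n = 6 each). The Rab5a share was 45.5% to 49.5% in young and 37.5% to 44.1% in aged samples and did not overlap. It was singled out from the shares within 15 groups of close relatives after its values were seen, and is therefore given without a test. A share also depends on the other genes of its group, and Rab5a's own level was not called. Rab31, which acts between the Golgi and endosomes, was the most abundant gene of this role at 9098 ± 655 and 8525 ± 1414 normalized counts (limma's adjusted p 0.795). Its aged sample 5 was above every young sample, and 4 aged samples were below every young one. Without aged sample 5 limma's adjusted p of Rab31 was 0.191, the smallest of the family in that fit. Rab20 (phagosome maturation), Rab21 (integrin traffic), Rab22a (endosomal sorting) and Rab24 (autophagy) had log2 differences of -0.13, 0.11, 0.06 and 0.11, none called. Over this role 8 of 9 genes were tested, 5 above 0 and 3 below, with a median of 0.08. The remaining gene, Rab17, reached 0.6 normalized counts in 1 young sample and is listed at 0 in the others.

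**Figure D2:**
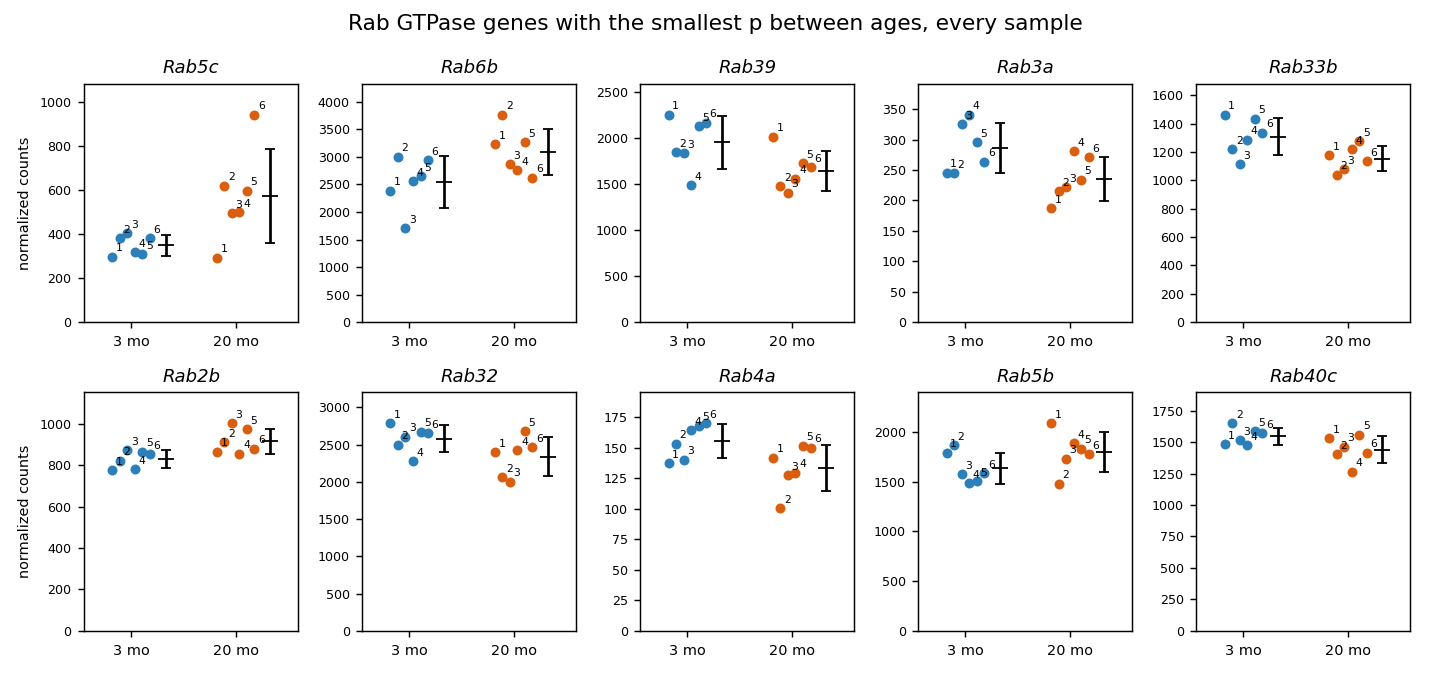
Normalized counts (y axes, from 0) of the 10 tested Rab GTPase genes with the smallest p, 1 point per sample, numbered by sample within each age, with mean and SD (n = 6 per age) beside the points. Rab5c in aged sample 1, at 292, lies below all young samples while the other aged samples lie above them.

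In the late endosome and lysosome role, 7 of the 8 tested genes had a difference below 0 and 1 above, with a median of -0.14, and none passed. Rab39, linked to phagosome acidification and autophagy, had 2252, 1843, 1831, 1488, 2125 and 2167 normalized counts in young and 2011, 1475, 1406, 1558.5, 1727 and 1683 in aged samples. The young samples included 3 above every aged sample, and young samples 2, 3 and 4 were within the aged range. The means were 1951 ± 286 and 1643 ± 217, a log2 difference of -0.24 (SE 0.11), and limma's adjusted p was 0.403. Rab32, a Rab of lysosome-related organelles and of host defence in macrophages, had 2782, 2496, 2603, 2276, 2670 and 2655 in young and 2398, 2064, 2003, 2420, 2682 and 2462 in aged samples. Its aged samples 2 and 3 were below every young sample and the other 4 lay within the young range, with means of 2580 ± 176 and 2338 ± 257 and a limma adjusted p of 0.580. Rab7, the Rab of late endosomes and of fusion with lysosomes, was the 1 gene above 0, at 2988 ± 303 and 3204 ± 175 (log2 difference 0.11, limma's adjusted p 0.739). Rab12, Rab34, Rab7l1 (also named Rab29), Rab9 and Rab42 had log2 differences of -0.07, -0.14, -0.11, -0.14 and -0.24, none called. Rab38, Rab39b and Rab9b were below the filter, at 0 to 0.4, 0 to 4.0 and 0 to 5.1 normalized counts.

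The Rabs of the ER and Golgi include the most abundant of the family. Per kilobase of exon and over all samples, Rab2a led with 2482 normalized counts, and Rab1b (1936) and Rab1 (1581), which carry cargo from ER to Golgi, were among the first 6. Rab1 had 6108 ± 467 and 5902 ± 383 normalized counts in young and aged mice and Rab2a 5436 ± 156 and 5154 ± 345 (SD, n = 6 each; limma's adjusted p 0.891 and 0.757). Rab6b, a Golgi Rab best known from neurons, had 2384, 3000.0, 1702, 2557, 2650.2 and 2945 in young and 3233, 3766, 2869, 2764, 3272 and 2620.4 in aged samples. Aged samples 1, 2 and 5 were above every young sample, and the other 3 lay within the young range. The means were 2540 ± 472 and 3087 ± 421, a log2 difference of 0.29 (SE 0.12), and limma's adjusted p was 0.363. Of the 12 neuronal markers, 3 were tested, at low counts, and 0 passed, and the rest were below the filter. The part of neuronal RNA in the Rab6b result was not tested.

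Rab33b, which acts in Golgi traffic and autophagy, had 1464, 1219, 1112.5, 1286, 1434 and 1337 normalized counts in young and 1179, 1040, 1078.5, 1220.4, 1275 and 1135 in aged samples. Of its young samples 4 were above every aged sample, and young samples 2 and 3 were within the aged range, with a log2 difference of -0.18 and a limma adjusted p of 0.475. Rab2b had 776, 823, 874, 779.5, 866 and 854.5 in young and 866, 910.0, 1002, 856, 975 and 880.5 in aged samples. Its values overlapped, with means of 829 ± 43.2 and 915 ± 60.3 and a limma adjusted p of 0.577. Of Rab2b's 50-base stretches, 57% also occur in transcripts of other annotated genes, among them the neighbour Tox4, so its count is uncertain. Rab6a, Rab1b, Rab18, Rab43 and Rab36 had log2 differences of -0.06, 0.05, -0.04, -0.04 and 0.20, none called. The role counted 10 tested genes, 4 above 0 and 6 below, with a median of -0.04. Rab30, a Golgi Rab, was below the filter, with 29.5, 10.6, 1.3, 9.9, 1.7 and 15.0 in young and 1.7, 0, 2.9, 0, 1.0 and 0.9 in aged samples. The ages overlapped, and with no filter its log2 difference was -2.20 with a limma adjusted p of 0.148.

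Recycling Rabs return receptors to the surface. Rab14, of the Golgi and endosomes, had 12141 ± 1396 and 11704 ± 1373 normalized counts and Rab11a, of the recycling endosome, 4008 ± 353 and 3710 ± 320 (limma's adjusted p 0.910 and 0.723). Rab4a, of fast recycling, had 137.5, 153.5, 140, 164, 168 and 170.0 in young and 142, 101, 128, 129.5, 152 and 150.0 in aged samples. Of its young samples 4 were above every aged sample, and the other 2 lay within the aged range. The means were 156 ± 14.2 and 134 ± 19.1, a log2 difference of -0.23, and limma's adjusted p was 0.668. Rab11b, Rab35 and Rab4b had log2 differences of 0.09, 0.03 and 0.03. Of the 6 tested, 3 were above 0 and 3 below, and Rab15 (0 to 12.4 normalized counts) and Rab25 (0 to 16.4) were below the filter.

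For post-Golgi exocytosis, Rab8b and Rab10, which deliver vesicles to the plasma membrane, had 10038 ± 1692 and 9969 ± 1718, and 5712 ± 347 and 5875 ± 417 normalized counts (limma's adjusted p 0.992 and 0.910). Rab8a was at 2802 ± 173 and 2807 ± 130, and Rab13, at 0 to 7.0, was below the filter. The 95% intervals of the 3 tested genes all lay within 1.5-fold.

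Regulated secretion was the role with the smallest share of genes tested, 3 of 10. Rab27a, which docks lysosome-related organelles and secretory granules, had 1182 ± 143 and 1246 ± 231 (limma's adjusted p 0.916). Rab3a, the synaptic vesicle Rab of neurons, had 245.6, 245, 325, 341, 295 and 264 in young and 187, 215, 222, 281.0, 234 and 271 in aged samples. Its young samples 3, 4 and 5 were above every aged sample, and aged samples 1, 2, 3 and 5 were below every young sample. The means were 286 ± 41.1 and 235 ± 35.5, a log2 difference of -0.28 (SE 0.13), and limma's adjusted p was 0.463. Rab3d was at 189 ± 50.9 and 222 ± 44.3. Rab26, Rab27b, Rab33a, Rab37, Rab3b, Rab3c and Rab44 were below the filter, with highest values of 17.2, 1.3, 9.9, 24.6, 2.6, 7.6 and 2.2 normalized counts in that order.

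In the last group, Rab40c, part of a ubiquitin ligase, had 1486, 1648, 1517.5, 1474, 1585 and 1569 in young and 1533, 1403, 1464, 1264, 1559 and 1417 in aged samples, with a log2 difference of -0.11 and a limma adjusted p of 0.716. The ages overlapped in Rab40c, although 3 young samples were above every aged one. Rab28, a ciliary Rab, was at 592 ± 45.8 and 572 ± 80.2, Rab23, a brake on Hedgehog signalling, at 193 ± 31.6 and 224 ± 45.6, and Rab19 at 62.8 ± 12.5 and 74.7 ± 12.1, none called. Rab40b, at 0 to 10.4, was below the filter. Of the 16 genes below it, 10 never reached 10 normalized counts in any sample.

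Within 15 groups of close relatives, 1 gene often carried nearly all transcripts per kilobase of exon. Rab27a held 99.95% or more of the Rab27 level in every sample and Rab32 99.97% or more of Rab32 plus Rab38. Means were also above 99% at both ages for Rab9 over Rab9b, Rab39 over Rab39b, Rab33b over Rab33a and Rab40c over Rab40b. Rab31 held 95.5% and 94.9% over Rab22a, Rab2a 92.8% and 91.6% over Rab2b, and Rab4b 88.7% and 90.3% over Rab4a, in young and aged mice. Other groups were mixed: Rab8b held 77.7% and 77.5%, Rab11a 74.1% and 71.2%, Rab3a 74.0% and 66.4% (with Rab3d at 25.7% and 33.5%), Rab1b 54.15% and 55.9%, and Rab6b 51.0% and 57.1%. Lengths come from GENCODE vM21 exon unions, which may differ from the authors' annotation. Of Rab43's and Rab4b's 50-base stretches 74.5% and 58.1% also occur in other annotated genes, and of Rab24's 49.6% (Prelid1), so their levels are uncertain.

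**Figure D3:**
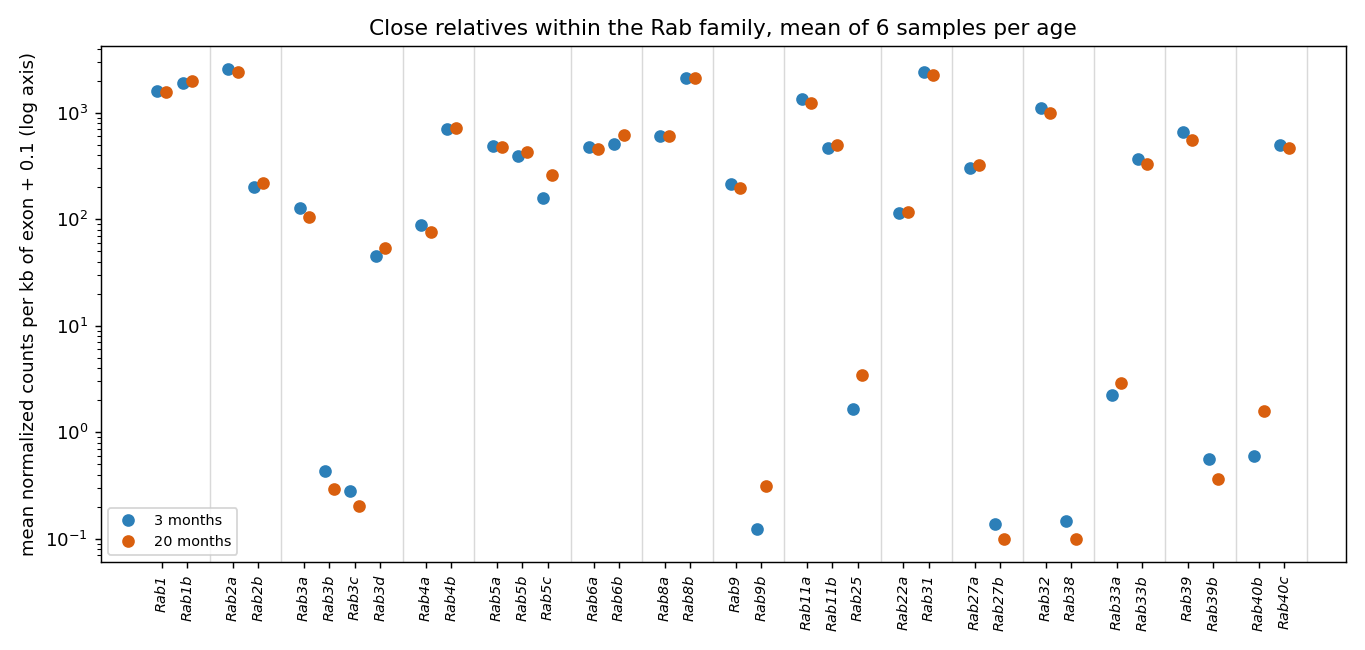
Mean normalized counts per kilobase of exon plus 0.1 (log axis) for close relatives, 1 blue point for 3 months and 1 orange point for 20 months (6 samples each, no error shown), groups separated by grey lines. Rab27a, Rab32, Rab9, Rab39, Rab33b and Rab40c lie far above their relatives at both ages, whereas Rab5a, Rab5b and Rab5c lie close together.

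Among 147 regulators and effectors of Rabs, 130 were tested, 2 rose at 20 months and none fell, where 1.73% of all genes tested were called. The ages did not overlap in 2 of the 130, against 1.87% of all genes. Mlph, melanophilin, which links Rab27a to a myosin motor, rose from 3929, 4435, 3735, 4325, 3544 and 4462 normalized counts in young to 5573, 5103, 6268, 6583, 6779 and 6937 in aged samples. The lowest aged sample was above the highest young one. The means were 4072 ± 390.1 and 6207 ± 725, 1.52-fold (95% interval 1.34 to 1.73), and limma's adjusted p was 5.8e-04. Mlph passed in 24 of 25 alternative settings, the exception being the 4 samples with 2 libraries (limma's adjusted p 0.191). Rab27a itself was not called, as given above.

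Tbc1d8b, a TBC-domain protein of the GAP family, rose from 88.4, 143, 119, 107, 107.5 and 161 to 219.7, 276, 194, 176, 192 and 191 normalized counts. Its ages did not overlap, with means of 121 ± 26.5 and 208 ± 36.1, 1.73-fold (95% interval 1.35 to 2.20), and limma's adjusted p was 0.0182. Tbc1d8b passed in 21 of 25 alternative settings, and the 4 exceptions follow. Without young sample 5 limma's adjusted p was 0.0509. On the 8 samples with 1 library the adjusted p was 0.145 with limma and 0.141 with edgeR. On the 4 with 2 libraries it was 0.999 with limma. The astrocyte marker Aldh1l1, given above, was also higher in every aged sample than in any young one, and its part in the Mlph and Tbc1d8b results was not tested.

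The other genes named by smallest p did not pass. Vps8, a subunit of the CORVET tether that binds Rab5, had 1930.1, 2137, 1647, 1655, 1723 and 2016 in young and 2542, 2434, 2313, 2349, 2859 and 1763 in aged samples. Aged sample 6 was within the young range and the other 5 were above every young sample, and limma's adjusted p was 0.123. Without aged sample 6 that p was 0.0148, without both samples of another strain label 0.0345, and on the 8 samples with 1 library 0.0486 with edgeR and 0.00177 with DESeq2. Vps8 passed in these 4 of 25 alternative settings and not in the other 21, limma on the same 8 samples among them. Trappc10, of the TRAPPII exchange factor, was at 1044 ± 208 and 1386 ± 212, with a limma adjusted p of 0.120 that became 0.0438 without young sample 1. Dennd3 (a Rab12 exchange factor) and Tbc1d7 (a subunit of the TSC complex) had log2 differences of 0.51 and -0.37 and limma adjusted p of 0.353 and 0.376. Gdi2, a GDP dissociation inhibitor, was at 13689 ± 857 and 12544 ± 687 and Chml, a Rab escort protein, at 327 ± 76.2 and 282 ± 84.0 (limma's adjusted p 0.480 and 0.806). By list, 0 of 48 exchange factors, 1 of 33 GAPs, 0 of 8 inhibitor and prenylation genes and 1 of 41 effectors were called, against the 1.73% of all genes. Their median log2 differences were -0.0064, 0.018, 0.025 and 0.062, and 11 of the 130 had an unadjusted p under 0.05, against 10.8% of all genes.

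**Figure D4:**
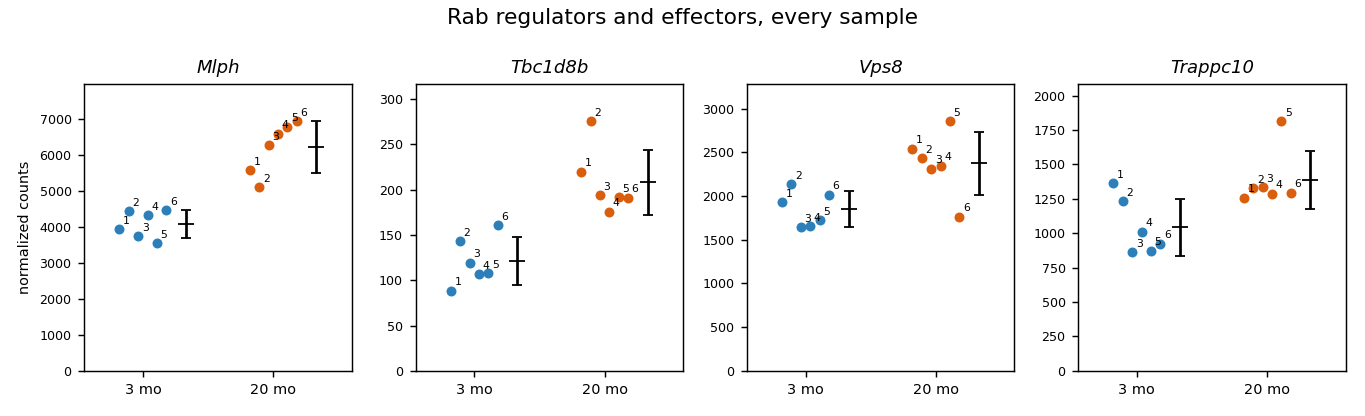
Normalized counts (y axes, from 0) of Mlph, Tbc1d8b, Vps8 and Trappc10, 1 point per sample, numbered by sample within each age, with mean and SD (n = 6 per age) beside the points. In Mlph and Tbc1d8b all aged points lie above all young points, in Vps8 aged sample 6 lies among the young points, and in Trappc10 young sample 1 lies among the aged points.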

How the data were processed

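RNA of 12 microglia samples (16 libraries, 4 samples with 2 technical libraries) was read by the authors with bcl2fastq, fastx_trimmer, STAR and samtools, per the series' design text, and mm10 is named in the submitters' processing notes. For versions, annotation and strandedness the status is "not given in the sources used here". The deposited values are a signal: gene counts divided by a library size factor, with 1 column per sample. Whole reads were recovered for the 8 single-library samples: divided by the worth of 1 read, 100% of the values above 0 came out whole within 0.1. The 4 columns from 2 libraries are means of separately scaled libraries. Of the symbols, 27 had been turned into dates.

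The main test was limma 3.58.1 (R 4.3.3) with an expression trend on log2(normalized count + 1), for genes with at least 10 in at least 6 samples, two-sided, adjusted over all genes by Benjamini-Hochberg at 0.05. A fold change is on that scale and understates change in low genes. The recovered reads of 8 samples were tested with edgeR 4.0.16 and DESeq2 1.42.0 as alternatives. The fit was tested on simulated data. Levels per kilobase and shared 50-base stretches used GENCODE vM21, and promoters RefSeq. The members and lists were chosen with earlier results of these data known. Values in every sample are given for genes past the threshold and the 10 tested Rab genes with the smallest p, and mean and SD for the 2 highest of each role. Of the regulator lists, genes past the threshold and the 2 with the smallest p are named. A summed level of the microglial marker list is not reported here.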

Additional observations from a re-analysis of the deposited data

Results flagged for a closer look

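In 100 groups of 6 samples examined for a sample far from the rest, 3 had one, where chance alone gives about 1 in 20. Rab31 in aged sample 5 was 1.134e+04 normalized counts, against 7380 to 8333 in the other aged samples. Rab6a in aged sample 1 was 1968, against 1597 to 1736. Trappc10 in aged sample 5 was 1814, against 1257 to 1335.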

How the results depend on the processing

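Over 25 alternative settings, 24 called no Rab GTPase gene, and leaving out each sample in turn gave 0 to 1 (Rab5c without aged sample 1). Without the 2 aged samples of another strain label, 0 of 42 Rab genes were called, and limma's smallest adjusted p was 0.187 (Rab34). In that fit 8 Rab genes had an unadjusted p under 0.05, against 3 in the main fit. The share over all genes in that fit is not given, so these counts cannot be compared. Leave-one-out fits called 1 to 3 regulators and effectors, and over all genes 101 to 174 higher and 27 to 60 lower. Limma on the 8 samples with 1 library called 1 regulator, 67 genes higher and 11 lower, and edgeR on their reads 2 regulators, 76 genes higher and 15 lower, whereas DESeq2 on the same reads called 3 regulators, 184 genes higher and 51 lower. Limma on the 4 samples with 2 libraries, a setting chosen after seeing the data, called 0 regulators, 18 genes higher and 1 lower, gave a median Rab difference of 0.0419 on the log2 scale against -0.03, and turned Rab6b to -0.01454. These subsets hold fewer samples. Same-numbered samples did not deviate together over all tested genes (correlations -0.121 to 0.107, and 1 of 6 young samples correlated best with its own number). A pairing that touches few genes could be missed this way. With the number as a replicate block, 30 genes were lower against 53, 0 Rab genes were called, and Rab5c had a limma adjusted p of 0.0901. Of the values for single named genes, 438 kept direction and side of the threshold, 6 passed where the main fit had not, 5 no longer passed and 1 changed sign. The 16 genes below the filter were too low for the main test.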
